A study of Rattus norvegicus with 16 samples.

Results

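The genes described here are 38 genes of the interferon response and of class I antigen processing, measured in the messenger RNA of the rat ventral prostate. They were chosen by gene symbol, as the rows that carry these symbols in both of the deposited count tables, out of 19710 genes named in both. The choice was made with earlier results of these data known. Shares of members set beside shares of all genes are therefore descriptions and not tests. All 38 were found, 1 of them (Xaf1) spelled in capitals in the PND540 table and matched without regard to case. The offspring fall into 4 groups: GLLP at postnatal day (PND) 540 with 4 libraries, CTR at PND540 with 5, GLLP at PND21 with 3 and CTR at PND21 with 4. GLLP rats were born to dams given a low protein diet with 6% protein while pregnant and while nursing, and CTR rats to dams given a normal diet with 17% protein; no strain is named in the labels, and no label says which rats shared a litter, so p-values measure only the spread between these samples. The questions are what the maternal diet does to these genes at each age, how they differ between the ages, and how much they vary between old glands.

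Interferons are secreted proteins that bind receptors on nearby cells. The receptors activate Stat2, which with Irf9 forms the core of the ISGF3 complex, and this complex binds a short promoter sequence, the interferon-stimulated response element (ISRE), to switch on antiviral genes. A second route, used by interferon gamma, raises Irf1 and the transactivator Nlrc5 and through them the genes that cut proteins into peptides (the immunoproteasome subunits Psmb8, Psmb9 and Psmb10), carry the peptides into the endoplasmic reticulum (Tap1 and Tap2), load them (Tapbp, tapasin) and hold the class I molecule together at the cell surface (B2m, its light chain). Class I molecules are displayed by most nucleated cells, and T cells read them.

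Libraries held between 28748604 and 37587255 counts at PND540 and between 30529776 and 39161666 at PND21. Levels are given as CPM, counts relative to library size, on library sizes scaled by the trimmed mean of M values (TMM), and they compare samples for 1 gene, not genes with each other, since they are not divided by gene length. Markers of ventral prostate secretory cells summed to between 19741 and 110783 CPM over the 16 libraries, with 9 of the 10 listed markers measured, so the labelled tissue was present in each. The libraries are from whole glands, in which fewer cells of a type and less RNA per cell cannot be told apart. CTR replicate 5 at PND540 stood apart from the other 8 libraries of its age: of 13324 genes tested there, 33.3% lay above and 37.1% below all of the others. Each age came in a table of its own with its own gene annotation, so the age of a gland and the table it was counted in cannot be told apart. Tap2 shows how far this can go: it had 1 count over the 7 PND21 libraries, and 38 genes named in both tables, Tap2 among them, had at most 1 count over all PND21 libraries with a mean of at least 5 CPM at PND540. The main count of age calls in each diet group is therefore also given without Tap2, and other counts include it unless stated. Genes from families with related copies (Ifitm1, Ifitm2 and Ifitm3, Mx1 and Mx2, Oas1a, Ifi27, Gbp2 and Gbp5) carry the added doubt that the counting may have divided reads among similar copies. How alike the copies are was not measured.

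Promoter sequence shows what many of these genes share apart from their names. RefSeq promoters (build GRCr8, 250 bases before to 50 bases after the start of the gene) were matched for 30 of the 38 members; Nlrc5, Ddx58, Dhx58, Isg15, Usp18, Ifit2, Mx2 and Ifitm1 had no entry. The ISRE core, GAAA followed by any 2 bases and a second GAAA, searched on both strands with overlapping matches allowed, was in 20 of the 30 (66.7%), against 1034 of 27457 promoters of the same length (3.77%). The gamma activated site TTCNNNGAA, a palindromic motif bound by STAT dimers, was in 8 of the 30 (26.7%), against 8.68% of all promoters. Among the 7 class I processing genes the ISRE core was in 6, all but Psmb9, and among the other members in 14 of 23. The stretches below are from the class I genes with the core and from the other members with it that were called between the ages in both diet groups. Irf1, Trim25, Oasl, Cmpk2, Mx1 and Psmb9 were also called between the ages, in at least 1 diet group, and their promoters had no core. Each is 40 bases of GRCr8, written 5′ to 3′ on the strand on which the core reads as GAAA repeats, with 1 match in capitals.
Psmb8 (chr20:4657011-4657050, plus strand): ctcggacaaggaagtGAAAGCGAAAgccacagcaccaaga
Psmb10 (chr19:50743285-50743324, minus strand): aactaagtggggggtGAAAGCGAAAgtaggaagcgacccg
Tap1 (chr20:4668640-4668679, plus strand): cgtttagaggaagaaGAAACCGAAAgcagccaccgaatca
Tap2 (chr20:4652313-4652352, minus strand): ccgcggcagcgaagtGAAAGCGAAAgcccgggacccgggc
Tapbp (chr20:4967873-4967912, minus strand): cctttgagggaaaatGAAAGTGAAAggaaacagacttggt
B2m (chr3:129549165-129549204, plus strand): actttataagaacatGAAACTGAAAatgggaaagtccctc
Irf7 (chr1:205800068-205800107, plus strand): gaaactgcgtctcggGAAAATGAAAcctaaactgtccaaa
Ifit3 (chr1:241527267-241527306, minus strand): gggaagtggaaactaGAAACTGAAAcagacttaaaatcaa
Oas1a (chr12:41330416-41330455, plus strand): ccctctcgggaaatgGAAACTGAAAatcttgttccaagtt
Bst2 (chr16:18255068-18255107, minus strand): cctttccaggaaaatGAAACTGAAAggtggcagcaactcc
Among those shown, Psmb8, Psmb10 and Tap2 carry the same match, GAAAGCGAAA, and Ifit3, Oas1a, Bst2 and B2m share GAAACTGAAA. A match describes the letters of the window and is no evidence that a factor bound there in these glands.

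Tapbp and Oas1a are also shown whole, because they are the class I and the antiviral gene whose differences between the ages were among the best supported in GLLP offspring. In both, 2 matches to the core overlap into a single run, in capitals, close to the start of the gene.
Tapbp promoter (chr20:4967828-4968127, minus strand): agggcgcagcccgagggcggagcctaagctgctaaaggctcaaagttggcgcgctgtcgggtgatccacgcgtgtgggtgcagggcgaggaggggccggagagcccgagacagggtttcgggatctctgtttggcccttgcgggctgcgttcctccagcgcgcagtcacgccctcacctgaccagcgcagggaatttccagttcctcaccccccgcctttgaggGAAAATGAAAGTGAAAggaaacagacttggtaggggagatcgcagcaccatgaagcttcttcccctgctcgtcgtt
Oas1a promoter (chr12:41330216-41330515, plus strand): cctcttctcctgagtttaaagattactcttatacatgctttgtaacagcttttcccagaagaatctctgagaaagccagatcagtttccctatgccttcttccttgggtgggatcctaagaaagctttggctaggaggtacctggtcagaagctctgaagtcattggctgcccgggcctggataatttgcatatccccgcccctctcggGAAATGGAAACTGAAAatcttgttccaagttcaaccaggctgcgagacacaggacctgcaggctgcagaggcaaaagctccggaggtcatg

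Many of the members were higher in old than in young glands, in the offspring of both diets, and none was called lower. Leaving out Tap2, the mean log2 CPM of the other 37 members lay between 3.90 and 4.82 in GLLP libraries at PND540 and between 4.14 and 4.96 in CTR libraries at PND540, against 3.10 to 3.60 in GLLP libraries and 3.29 to 3.96 in CTR libraries at PND21. The highest young library, CTR replicate 3, with 3.96, was above the lowest old one, GLLP replicate 2, with 3.90.

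**Figure D1:**
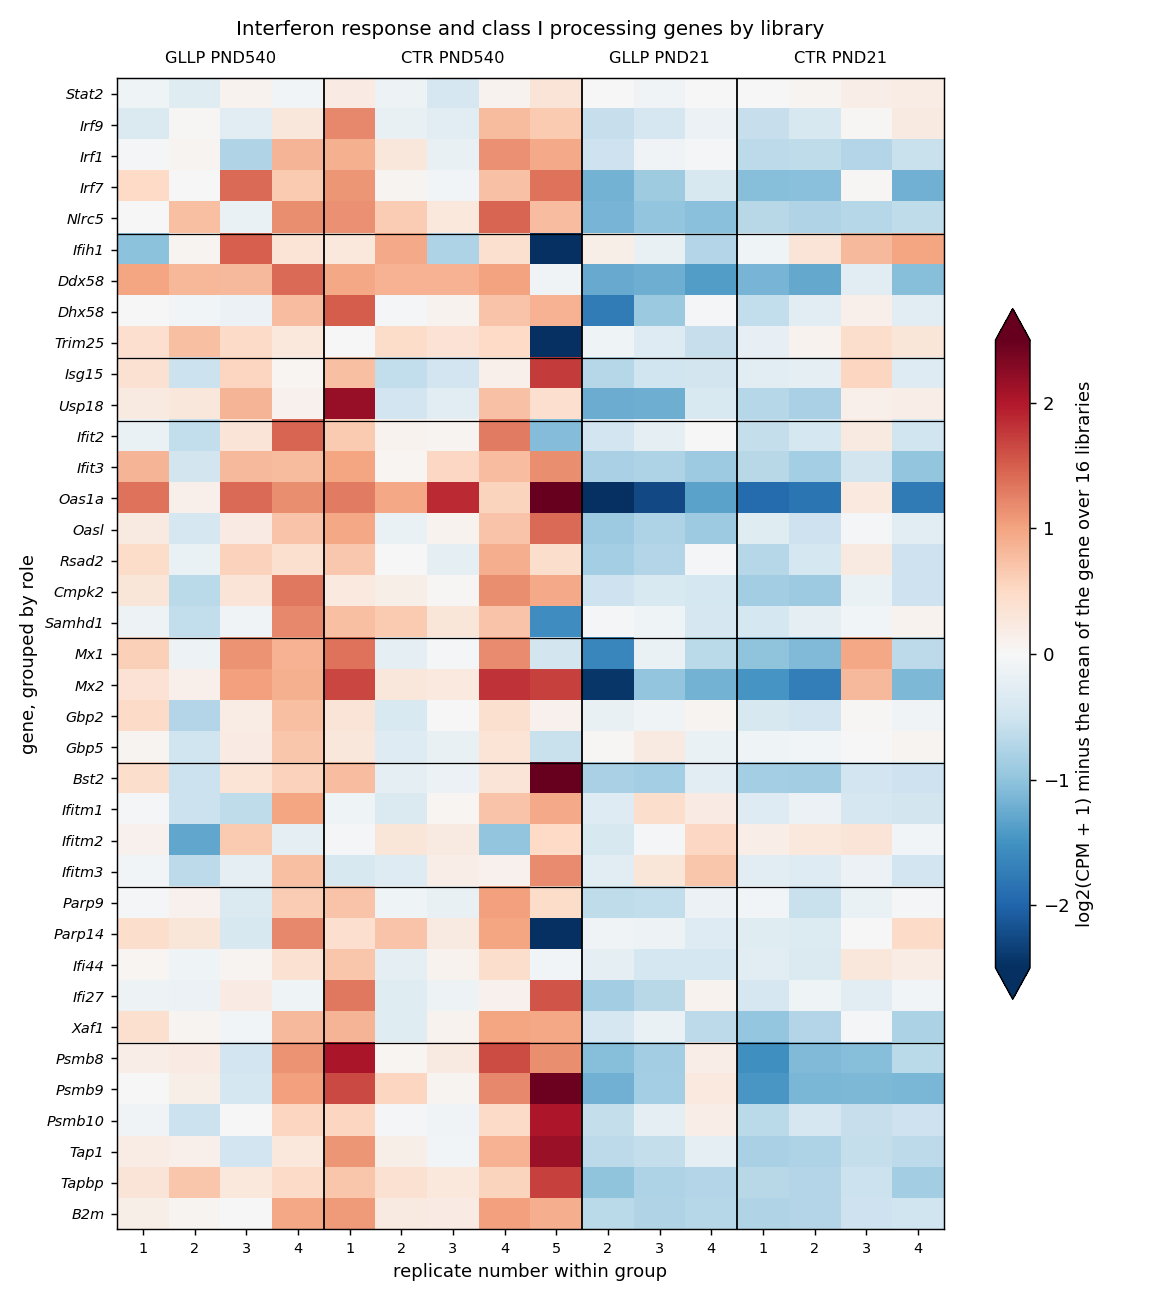
Log2(CPM + 1) of 37 members (rows, grouped by role) in each of the 16 libraries (columns), as the difference from the mean of that gene over all libraries; red is above that mean and blue below, and Tap2 is left out. Most rows are red at PND540 and blue at PND21, CTR replicate 5 at PND540 holds both the darkest red and the darkest blue cells, and CTR replicate 3 at PND21 is paler or redder than the other PND21 libraries for genes such as Oas1a and Mx2.

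In CTR offspring, 18 of 38 members were called higher at PND540 than at PND21 by edgeR's quasi-likelihood test with Benjamini-Hochberg adjustment at 0.05, and 0 lower, where 30.5% of the 13521 genes tested were called, 17.3% higher and 13.2% lower. Without Tap2 it was 17 of 37 (45.9%). The median log2 fold change (PND540 over PND21) was 1.09 over these 37 members, beside 0.07 over all genes tested. All 7 class I processing genes were among the calls, and without Tap2 the other 6 had log2 fold changes from 1.35 to 2.78. At PND540 the CTR values lay above every PND21 value for 13 of the 37 members and below them for 0, a separation that 18.8% of all genes tested showed upward and 19% downward.

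Psmb9 and Psmb8 had the largest class I differences apart from Tap2. In CTR glands Psmb9, an interferon-induced catalytic subunit that replaces a constitutive one, had 62.2, 28.3, 20, 45.1 and 109 CPM at PND540 and 6.36, 8.13, 8.27 and 8.11 CPM at PND21. The groups did not overlap, and replicate 5 was the highest old gland, and the log2 fold change was 2.78 ± 0.48 (SE; adjusted p = 0.00178, edgeR). Psmb8, its partner subunit, had a log2 fold change of 2.59 ± 0.48 (edgeR adjusted p = 0.00285), and Psmb10 one of 1.44 ± 0.45 (edgeR adjusted p = 0.035). Tap1, a chain of the peptide transporter, had 123, 63.1, 53.7, 105 and 258 CPM at PND540 and 31.7, 33, 37.1 and 35.9 CPM at PND21. Its young values sat within a few CPM of each other while the old ones spread widely, and the log2 fold change was 1.81 ± 0.43 (edgeR adjusted p = 0.0108). Tap2, the other chain, had 7.79, 8.18, 5.86, 8.04 and 14.8 CPM at PND540 and 0 counts in all 4 CTR libraries at PND21. For the reason given above no fold is drawn from it. In the RefSeq annotation Psmb8, Tap1 and Psmb9 follow Tap2 directly on the chromosome, while B2m, Psmb10 and Nlrc5 are not among its 4 nearest neighbours on either side.

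The loading factor, the light chain and their transactivator rose too. Tapbp had 243, 194, 179, 219 and 493 CPM in CTR glands at PND540 and 91.6, 89.7, 103 and 81.8 CPM at PND21, with no overlap and a log2 fold change of 1.54 ± 0.31 (edgeR adjusted p = 0.00406). B2m had 914, 508, 502, 879 and 820 CPM at PND540 and 259, 262, 304 and 309 CPM at PND21. Its old values fell into a lower pair and a higher trio, all above the young ones, and the log2 fold change was 1.35 ± 0.24 (edgeR adjusted p = 0.00195). Nlrc5 had 19.9, 13.6, 10.3, 25 and 15.2 CPM at PND540 and 4.82, 4.6, 4.72 and 5.05 CPM at PND21. Young glands hardly differed in Nlrc5, and every old one held more than 2 times as much as any of them (log2 fold change 1.81 ± 0.28, edgeR adjusted p = 0.000929). Irf1, the factor that interferon gamma induces, had a log2 fold change of 1.40 ± 0.28 (edgeR adjusted p = 0.00428).

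Of the antiviral effectors, 4 of 7 were called higher in CTR glands at PND540. Ifit3 had 3.48, 1.34, 2.21, 2.84 and 4.03 CPM at PND540 and 0.385, 0.252, 0.636 and 0.133 CPM at PND21 (log2 fold change 2.97 ± 0.51, edgeR adjusted p = 0.00182). These are low levels, but the groups did not overlap. Oas1a, a synthetase of the 2-5A signal that activates RNase L, had 33.4, 26, 49.8, 19.5 and 108 CPM at PND540 and 2.67, 2.93, 15.5 and 3.06 CPM at PND21. The young CTR replicate 3, at 15.5 CPM, came close to the lowest old gland, and the log2 fold change was 2.97 ± 0.73 (edgeR adjusted p = 0.0125). Oasl (1.57 ± 0.48, edgeR adjusted p = 0.0324) and Cmpk2, a mitochondrial nucleotide kinase (1.53 ± 0.40, edgeR adjusted p = 0.0154), were the others called. Ifit2, Rsad2 (viperin) and Samhd1 had log2 fold changes of 0.79, 1.04 and 0.60 and were not called.

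Among the RNA sensors, Ddx58 (RIG-I) had 17.9, 16.7, 16.5, 18.3 and 8.05 CPM in CTR glands at PND540 and 3.28, 2.96, 7.03 and 3.62 CPM at PND21. Replicate 5 was the lowest old gland and replicate 3 the highest young one, and they still did not meet (log2 fold change 1.88 ± 0.35, edgeR adjusted p = 0.00287). Dhx58 (LGP2) was called at the edge of the threshold, with a log2 fold change of 1.09 ± 0.37 (edgeR adjusted p = 0.0485). Ifih1 (MDA5) and Trim25, the ubiquitin ligase that acts on RIG-I, had log2 fold changes of -0.52 ± 0.60 and -0.11 ± 0.55 and were not called. The remaining calls were Irf7, which amplifies interferon production (1.57 ± 0.41), Bst2 or tetherin, which holds budding virus at the membrane (2.20 ± 0.75, edgeR adjusted p = 0.0494), and Xaf1 (1.55 ± 0.43). None of the 4 GTPases (Mx1, Mx2, Gbp2, Gbp5) and neither Isg15 nor Usp18, the modifier and the protease that removes it, passed the threshold in CTR. Mx2 came near it, with a log2 fold change of 1.87 ± 0.66 (edgeR adjusted p = 0.0561). It was called in edgeR without CTR replicate 3 of PND21. DESeq2 called 20 members in CTR, the 18 and also Mx2 and Rsad2. Over all 13521 genes it called 2786 higher and 2283 lower.

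The number of CTR calls depended on single libraries. Without CTR replicate 1 or replicate 2 of PND21, 11 members were called, and Bst2, Cmpk2, Dhx58, Irf7, Oasl, Psmb10 and Xaf1 were lost in both fits. Without CTR replicate 5 of PND540, 21 were called, with Ifit2, Parp14 and Samhd1 gained, and the log2 fold change was 2.33 for Psmb9, 1.32 for Tap1, 0.85 for Psmb10 and 0.95 for Bst2. Calls over all genes moved the same way. With all libraries 2341 of 13521 genes were called higher. It was 1768 of 13696 without replicate 1 of PND21, 1722 of 13694 without replicate 2, and 3491 of 13428 without replicate 5 of PND540. Irf1, Nlrc5, Ddx58, Ifit3, Oas1a, Psmb8, Psmb9, Tap1, Tap2, Tapbp and B2m, 11 of the 18, were called in each of 16 alternative fits.

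**Figure D2:**
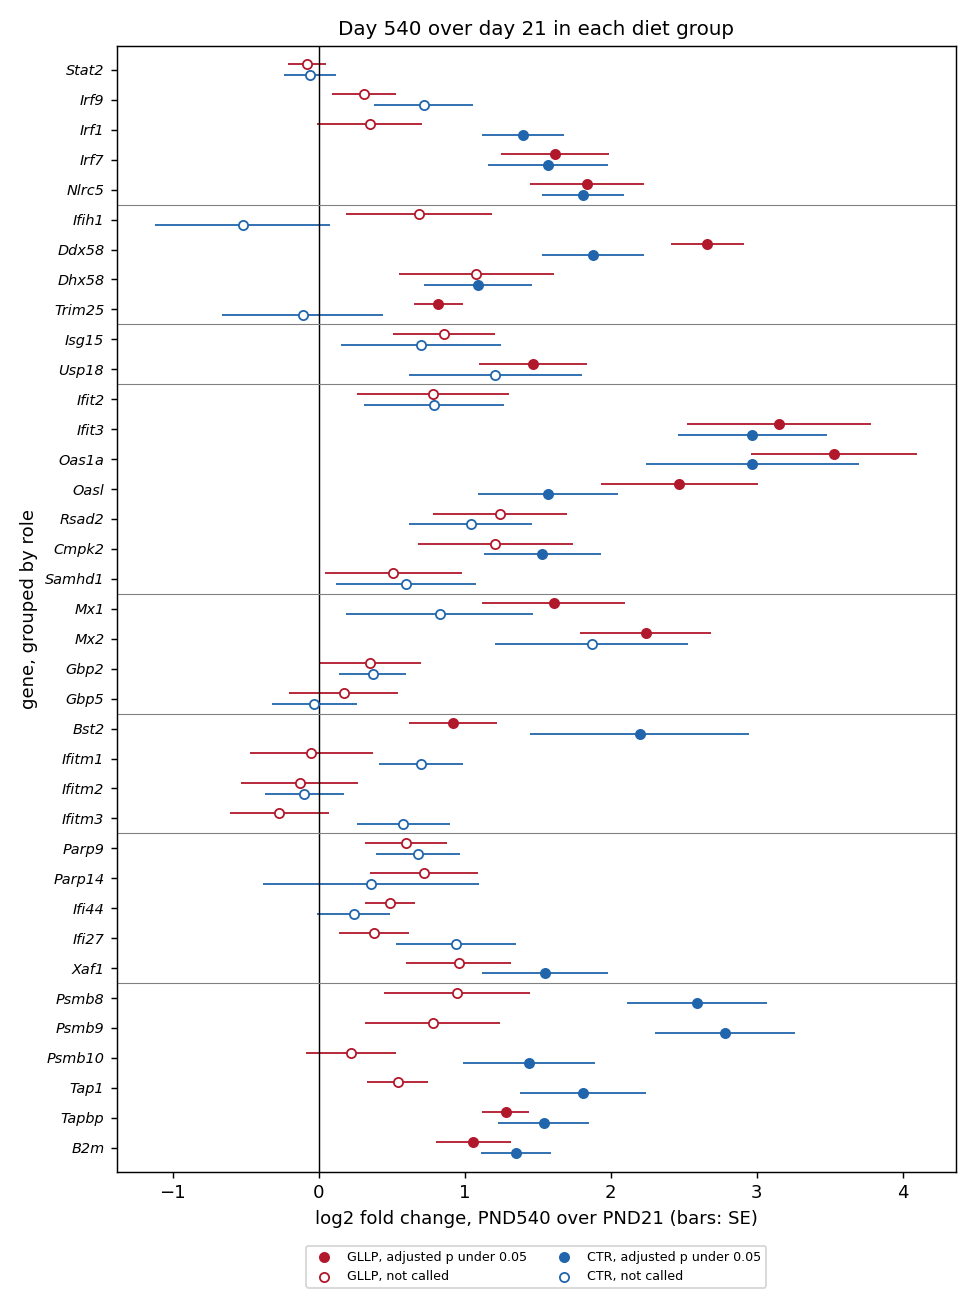
Log2 fold change of PND540 over PND21 (x axis; bars are standard errors) for 37 members (y axis, grouped by role) in GLLP (red) and CTR offspring (blue); filled points passed an adjusted p of 0.05. The 6 class I genes in the lowest block are all filled in CTR, while in GLLP only Tapbp and B2m are, and the largest values of both diets belong to Ifit3, Oas1a and, in CTR, Psmb9.

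In GLLP offspring, 14 of 38 members were called higher at PND540 and 0 lower (13 of 37, or 35.1%, without Tap2), where 36.2% of the 13695 genes tested were called, 19.1% higher and 17.1% lower. Over the 37 members the median log2 fold change was 0.82, beside 0.02 over all genes. Old values lay above every young value for 14 of the 37 and below for 0, beside 22.8% and 21.9% of all genes tested. Scaling by library size alone left the direction of the members as it was, with 12 called higher, while over all genes it turned the balance to 1965 higher and 2916 lower from 2611 higher and 2341 lower.

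By fold change, Oas1a and Ifit3 were the largest GLLP calls apart from Tap2; by role, 3 of 7 antiviral effectors and 3 of 7 class I genes were called, and 2 of 4 RNA sensor genes and 2 of 4 GTPases. Oas1a had 34.5, 14.2, 36 and 29.9 CPM in GLLP glands at PND540 and 0.932, 1.89 and 4.5 CPM at PND21 (log2 fold change 3.53 ± 0.57, edgeR adjusted p = 0.00146). Every old gland was above 3 times the highest young one. Ifit3 had 3.04, 0.644, 2.95 and 2.91 CPM at PND540 and 0.287, 0.311 and 0.191 CPM at PND21, 1 old gland (replicate 2) lying far below the other 3 (log2 fold change 3.15 ± 0.63, edgeR adjusted p = 0.00447). Ddx58 had 18, 16.1, 15.8 and 24.8 CPM at PND540 and 3.01, 3.11 and 2.65 CPM at PND21, tight on both sides, with a log2 fold change of 2.66 ± 0.25 (edgeR adjusted p = 9.13e-05). Mx2 and Mx1, dynamin-like GTPases that block viral replication, had log2 fold changes of 2.24 ± 0.45 and 1.61 ± 0.49, Oasl one of 2.47 ± 0.54, and Usp18 one of 1.47 ± 0.37. The other calls outside class I were Irf7 (1.62 ± 0.37), Nlrc5 (1.84 ± 0.39), Trim25 (0.82 ± 0.17) and Bst2 (0.92 ± 0.30).

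Of the class I genes other than Tap2, 2 of 6 were called in GLLP. Tapbp had 187, 243, 179 and 208 CPM in GLLP glands at PND540 and 74, 87.2 and 89.6 CPM at PND21 (log2 fold change 1.28 ± 0.16, edgeR adjusted p = 0.000391). B2m had 479, 456, 430 and 854 CPM at PND540 and 270, 258 and 264 CPM at PND21 (log2 fold change 1.06 ± 0.26, edgeR adjusted p = 0.0117). GLLP replicate 4 was high for B2m, and the other 3 old glands still lay above all young ones. Psmb9, with 18.9, 21.3, 13.9 and 40 CPM at PND540 and 7.71, 10.2 and 22.8 CPM at PND21, overlapped between the ages and was not called (log2 fold change 0.78 ± 0.46, edgeR adjusted p = 0.224). Psmb8, Psmb10 and Tap1 had log2 fold changes of 0.95, 0.22 and 0.54 and were not called. Without GLLP replicate 4 of PND21, Psmb9 was called (1.39, edgeR adjusted p = 0.0499) and Psmb8 had 1.56, not called. Tap1 was called by DESeq2 (0.54, adjusted p = 0.0482) and, in edgeR, without GLLP replicate 3 of PND540 (0.69, adjusted p = 0.011). Tap2 had 6.49, 7.91, 6.5 and 11.1 CPM at PND540, against 1 count in GLLP replicate 2 and 0 in the other 2 libraries at PND21. In GLLP, 11 of the 14 calls were made in each of 14 alternative fits; Usp18, Mx1 and Bst2 were lost in some. DESeq2 called 19 members in GLLP, the 14 and also Isg15, Rsad2, Ifi44, Xaf1 and Tap1. Over all 13695 genes it called 2906 higher and 2678 lower.

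**Figure D3:**
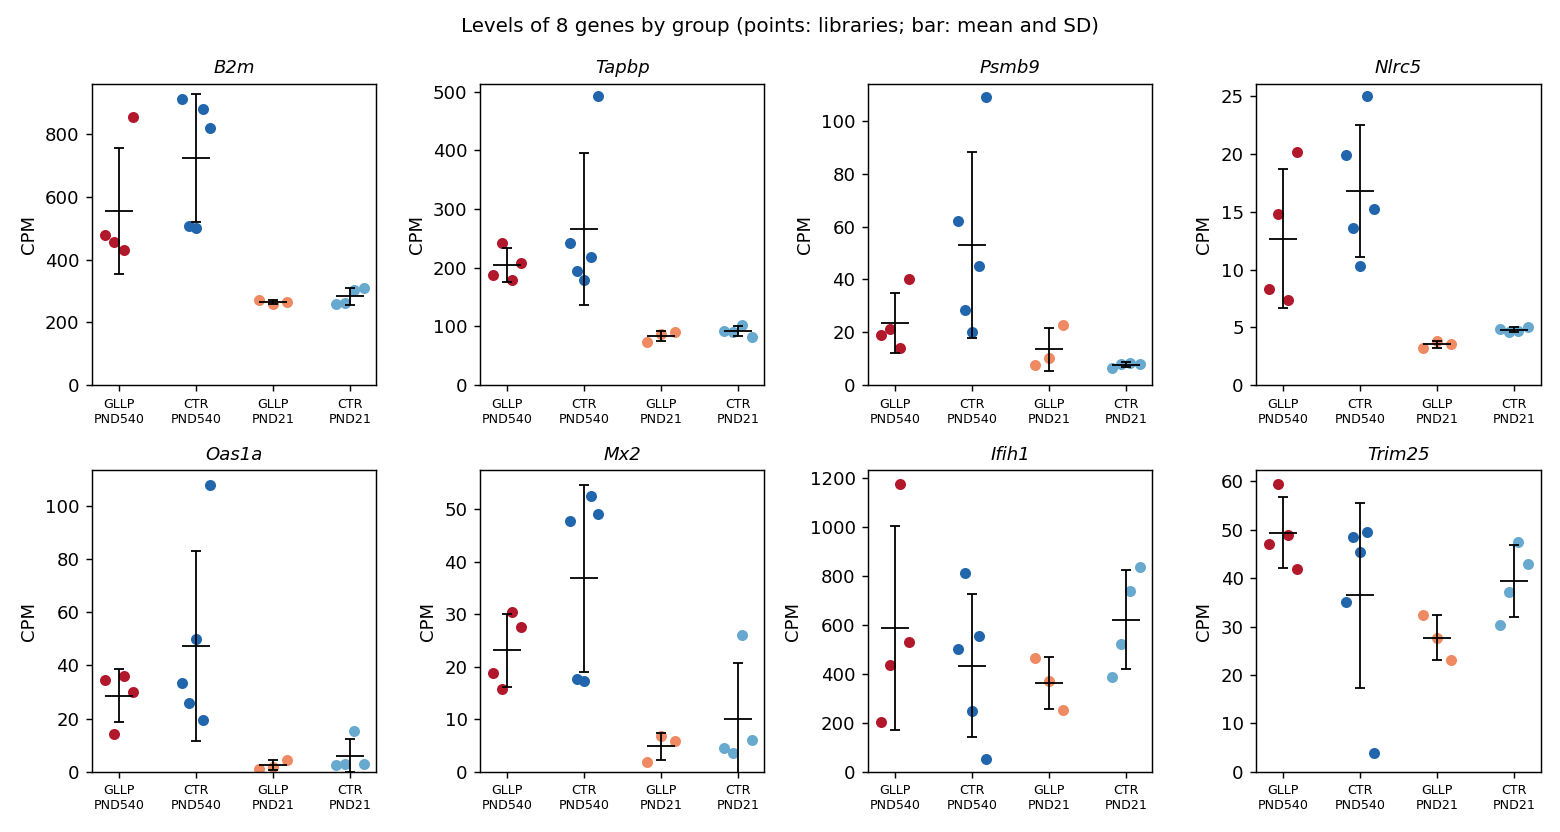
CPM (y axis, from 0) of 8 members in every library (points) with the mean and SD of each group (bars), GLLP and CTR at PND540 on the left of each panel and at PND21 on the right. B2m, Tapbp, Nlrc5 and Oas1a were higher in the old groups, while Ifih1 and Trim25 overlapped between the ages in CTR, with CTR replicate 5 at PND540 the lowest point in both.

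In both diet groups 10 members were called, 71.4% of the GLLP calls and 55.6% of the CTR calls: Irf7, Nlrc5, Ddx58, Ifit3, Oas1a, Oasl, Bst2, Tap2, Tapbp and B2m. Tap2 is counted in both shares. Another 4 (Trim25, Usp18, Mx1 and Mx2) were called in GLLP alone and 8 (Irf1, Dhx58, Cmpk2, Xaf1, Psmb8, Psmb9, Psmb10 and Tap1) in CTR alone. No interaction of diet and age was called for any of them, so the age difference is not shown to depend on the diet. The 16 called in neither were Stat2, Irf9, Ifih1, Isg15, Ifit2, Rsad2, Samhd1, Gbp2, Gbp5, Ifitm1, Ifitm2, Ifitm3, Parp9, Parp14, Ifi44 and Ifi27. Stat2, one of them, had group means of 96.8 ± 11.3 CPM in GLLP and 106 ± 21 CPM in CTR at PND540 and 101 ± 3.45 CPM in GLLP and 110 ± 7.15 CPM in CTR at PND21 (SD; n = 4, 5, 3 and 4). The ISRE core did not go with being called: it was in 11 of 17 promoters (64.7%) of members called in either diet group and in 9 of 13 (69.2%) of those called in neither.

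Markers of some cell types moved with age as well. The 15 T cell markers summed to 40.8 to 89.3 CPM in GLLP and 41.3 to 134 CPM in CTR at PND540, against 18 to 24.6 CPM in GLLP and 14.2 to 19.6 CPM in CTR at PND21, and of the defining ones only Trat1 was at 0 throughout a group (GLLP at PND540). In GLLP, 3 of 11 tested T cell markers were called higher at PND540, where 19.1% of all genes were, and in CTR 9 of 12, where 17.3% were. The 11 measured of 13 macrophage and monocyte markers summed to 573 to 1047 CPM in GLLP and 703 to 2121 CPM in CTR at PND540, against 270 to 399 and 175 to 392 CPM in the same groups at PND21. Of the NK and cytotoxic cell markers tested, 0 of 8 were called higher and 3 lower in GLLP, and 0 of 6 were called in CTR; 0 of 4 dendritic cell markers were called in either. Epithelial markers were called higher for 4 of 6 in each diet group. Smooth muscle markers were called lower for 5 of 6 in GLLP and 4 of 6 in CTR, and endothelial markers for 5 of 7 in GLLP and 4 of 7 in CTR. Markers of fibroblasts and stroma were lower too, at 224 to 781 CPM in GLLP and 111 to 579 CPM in CTR at PND540, against 5976 to 7581 and 4167 to 6163 CPM at PND21. The part of these cell types in the age differences of the members was not tested.

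At PND540 no member passed the threshold between GLLP and CTR, and no gene did at all (0% of 14767 tested; smallest adjusted p 0.914; 123 genes at an unadjusted p under 0.05, and 2 genes called by DESeq2, neither of them a member). Of the 38 members 30 had a negative log2 fold change (GLLP over CTR), with a median of -0.29, where 50% of all genes were positive. The median was -0.54 without GLLP replicate 4, -0.17 without GLLP replicate 2 (14 members positive, against 8) and -0.14 without CTR replicate 5. The 6 class I genes other than Tap2 were all negative, from -1.20 to -0.40. Tap1 and Psmb9 were the members with an unadjusted p under 0.05. Tap1 had 64.7, 62.2, 40.6 and 68.2 CPM in GLLP glands and 123, 63.1, 53.7, 105 and 258 CPM in CTR glands (log2 fold change -1.06 ± 0.45, edgeR adjusted p = 0.914). Psmb9 had 18.9, 21.3, 13.9 and 40 CPM in GLLP glands and 62.2, 28.3, 20, 45.1 and 109 CPM in CTR glands (-1.20 ± 0.51, edgeR adjusted p = 0.914). The groups overlapped for both, and CTR replicate 5 was the highest library for each.

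Next by p came Irf9, Ifi27 and Psmb8, none of them called. Irf9 had 17.7, 23.7, 18.7 and 28.4 CPM in GLLP and 54.4, 20.1, 18.9, 40.8 and 37.1 CPM in CTR glands (log2 fold change -0.64 ± 0.34, edgeR adjusted p = 0.914). Ifi27 had 205, 201, 257 and 207 CPM in GLLP and 557, 181, 204, 241 and 664 CPM in CTR glands, with replicates 1 and 5 of CTR far above the rest (-0.78 ± 0.42). Psmb8 had 9.39, 9.62, 5.61 and 19.1 CPM in GLLP and 36.8, 8.58, 9.81, 27.6 and 19.5 CPM in CTR glands (-0.92 ± 0.50). Without CTR replicate 5 the log2 fold changes were -0.55 for Tap1, -0.73 for Psmb9, -0.92 for Psmb8, -0.23 for Psmb10, -0.03 for Tapbp and 0.04 for Bst2, which had -1.25 ± 0.74 with it. At PND540 the groups did not separate for any member, beside 0.143% of genes upward and 0.278% downward.

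At PND21 no member was called between GLLP and CTR either, where 1.11% of 14915 genes were (150, or 1.01%, higher and 16, or 0.107%, lower in GLLP). Of the 37 members tested, 9 had an unadjusted p under 0.05, beside 19.3% of all genes, 13 had a positive and 24 a negative log2 fold change, and the median was -0.13. With scaling by library size alone 19 were positive, the median of the members was 0.02 and that of all genes 0.14, so the balance of signs changed with that scaling. GLLP values lay above all CTR values for 1 member and below them for 3, beside 9.6% and 7.78% of all genes.

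The 5 members with the smallest p at PND21 moved in both directions. Oasl, an oligoadenylate synthetase-like protein, had 0.287, 0.415 and 0.287 CPM in GLLP glands and 0.963, 0.693, 1.34 and 1.03 CPM in CTR glands, without overlap (log2 fold change -1.58 ± 0.35, edgeR adjusted p = 0.0752). DESeq2 called Oasl, with a log2 fold change of -1.59 and an adjusted p of 0.0158; it was the only member that tool called. Irf1 had 13.5, 18.7 and 19.3 CPM in GLLP and 12.2, 12.5, 11.6 and 13.2 CPM in CTR glands, again apart (0.48 ± 0.15, edgeR adjusted p = 0.146). Ifitm3, which blocks the fusion of viruses with endosomes, had 70.1, 104 and 136 CPM in GLLP and 68.6, 67.1, 75.8 and 60.3 CPM in CTR glands (0.61 ± 0.19, edgeR adjusted p = 0.153). For Trim25 the values were 32.4, 27.6 and 23.2 CPM in GLLP and 30.3, 37.2, 47.4 and 43 CPM in CTR glands (-0.51 ± 0.17). Nlrc5 was at 3.19, 3.79 and 3.57 CPM in GLLP and at 4.82, 4.6, 4.72 and 5.05 CPM in CTR glands, apart by about 1 CPM (-0.44 ± 0.16).

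By role, both signs occurred in most groups at PND21, without a call. Of the 6 class I genes tested 4 were positive and 2 negative (Tapbp at -0.13 and B2m at -0.10), with Psmb9 at 0.82 ± 0.33 and Psmb8 at 0.72 ± 0.38, and the highest of all 7 young libraries for both was GLLP replicate 4, at 22.8 and 9.35 CPM. Of the 7 antiviral effectors 2 were positive and 5 negative, and of the 4 membrane restriction factors 3 were positive. All 4 RNA sensor genes and both of Isg15 and Usp18 were negative. These values depended on 3 libraries. Without GLLP replicate 4 the log2 fold change was 0.22 for Psmb9 and 0.13 for Psmb8, and the median of the members was -0.22. Without GLLP replicate 2, 4 members were called higher in GLLP (Ifitm1, Ifitm3, Irf1 and Psmb9), and the calls over all genes numbered 1509. Without CTR replicate 3, 18 members were positive with a median of -0.01, and the log2 fold change was -0.22 for Oas1a (-1.30 ± 0.79 with it), 0.04 for Mx2 (-1.05 ± 0.77) and 0.27 for Mx1 (-0.65 ± 0.69). Skeletal muscle markers summed to 386 to 679 CPM in GLLP and 13.1 to 19.7 CPM in CTR glands at PND21, and their part in these values was not tested.

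**Figure D4:**
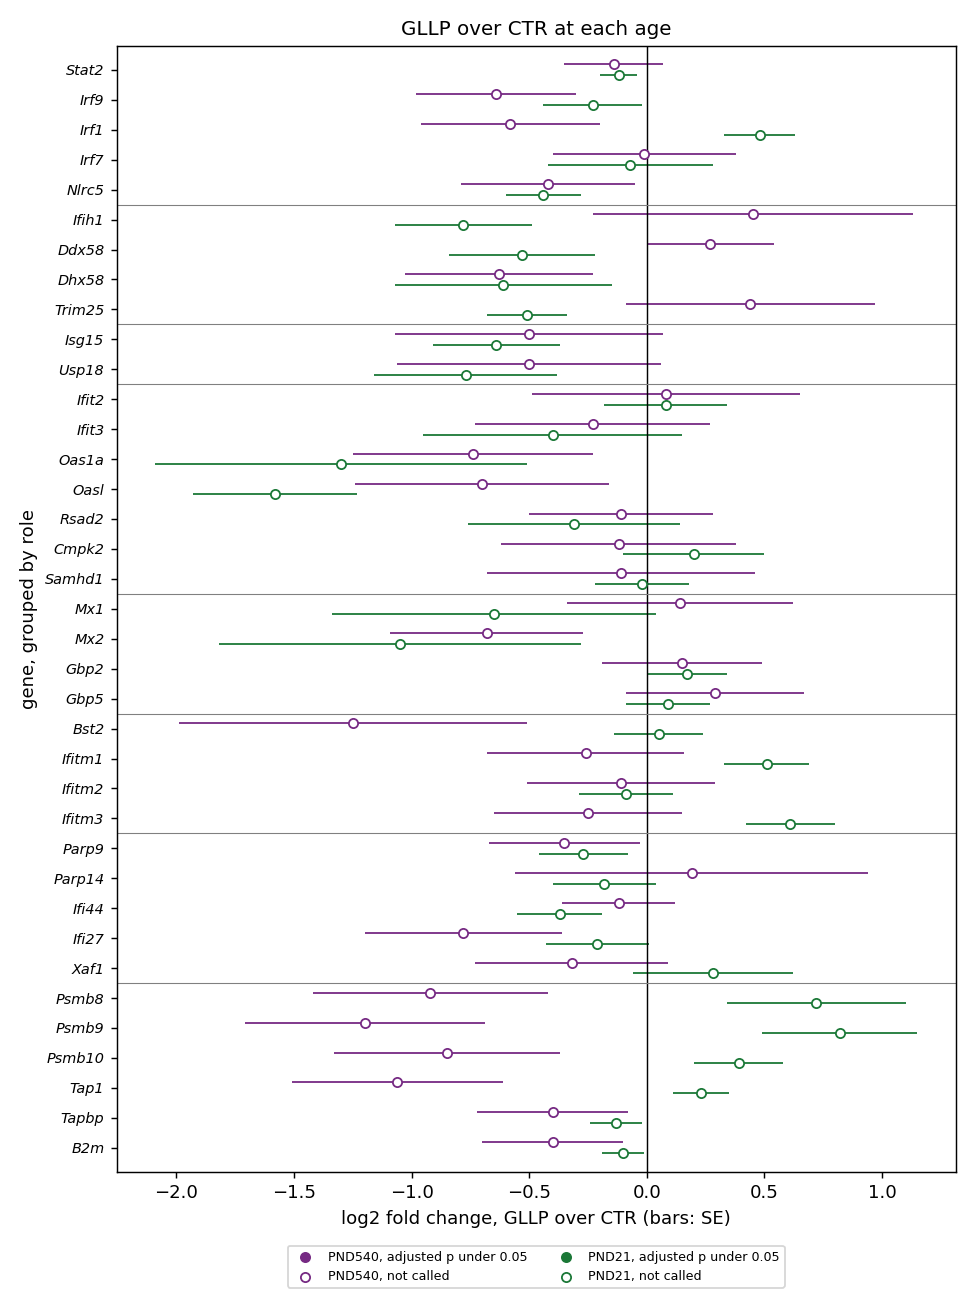
Log2 fold change of GLLP over CTR (x axis; bars are standard errors) for 37 members (y axis, grouped by role) at PND540 (purple) and PND21 (green); no point is filled, since none passed an adjusted p of 0.05. The 6 class I genes in the lowest block are all below 0 at PND540, and at PND21 Psmb8, Psmb9, Psmb10 and Tap1 are above 0.

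The difference between the diet effects of the 2 ages was called for no member, and for 0.0917% of 14179 genes (13, all lower). Psmb9 had the smallest p of the members: its diet effect at PND540 less that at PND21 was -1.99 ± 0.68 on the log2 scale (edgeR adjusted p = 0.738). Psmb8 (-1.62 ± 0.71), Tap1 (-1.25 ± 0.53) and Irf1 (-1.04 ± 0.47) were the others with an unadjusted p under 0.05, at the same adjusted p of 0.738. The 6 class I genes other than Tap2 were all negative, from -1.99 to -0.25. Without CTR replicate 5 of PND540, Psmb9 had -1.56, Psmb8 -1.66, Tap1 -0.79 and Irf1 -0.99, still with no call. Without GLLP replicate 4 of PND21, Psmb9 had -1.39 and Psmb8 -1.03, and 0 members had an unadjusted p under 0.05. In all, 733 genes had an unadjusted p under 0.05 for this difference (5.17%), 4 members among them, and DESeq2 called 46 genes and no member.

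Old glands differed widely among themselves in these genes. Over the 9 libraries at PND540 the median SD of log2 CPM was 0.68 for the 38 members, beside 0.54 for all 13324 genes, and without CTR replicate 5 it was 0.57 beside 0.31. Parp14, an ADP-ribosyltransferase, varied most (SD 1.76): GLLP glands had 16, 14.4, 8.53 and 28 CPM and CTR glands 15.9, 19.5, 13.6, 23.9 and 0.43 CPM. Trim25 had 47, 59.5, 49 and 42 CPM in GLLP and 35.1, 48.5, 45.4, 49.6 and 3.91 CPM in CTR glands (SD 1.20). In both, the last CTR value, replicate 5, made most of the spread, and without it the SD was 0.53 for Parp14 and 0.22 for Trim25. Samhd1, which breaks down the nucleotides that viruses copy their DNA with, had 5.9, 3.94, 6.13 and 16.3 CPM in GLLP and 11.6, 10.8, 8.34, 11.3 and 1.56 CPM in CTR glands (SD 1.01). Ifih1 kept much of its spread without replicate 5 (SD 1.32 with it and 0.82 without), at 205, 436, 1173 and 530 CPM in GLLP and 502, 810, 246, 552 and 52.6 CPM in CTR glands. Bst2 went the opposite way in that library, with 28.9, 14.2, 27 and 31.8 CPM in GLLP and 36.4, 17.6, 18.8, 26.7 and 195 CPM in CTR glands (SD 1.10, and 0.47 without replicate 5).

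In CTR replicate 5, members with longer genes tended to be lower and those with shorter genes higher, with exceptions. Of the 38 members 13 lay above all other PND540 libraries there and 8 below (34.2% and 21.1%, beside 33.3% and 37.1% of all genes). Across the 38 members, the difference between replicate 5 and the median of the other 8 libraries had a Spearman correlation of -0.65 with the span of the gene in the RefSeq annotation, and across 12861 genes one of -0.44. In each of the other 8 libraries the same correlation over the members lay between -0.13 and 0.32, and over all genes between -0.23 (CTR replicate 1) and 0.31 (CTR replicate 2). These are descriptions across genes that share 1 library, and genes are not independent replicates. Some members departed from the trend. The difference of replicate 5 from that median was 0.10 for Nlrc5 (103.6 kb), 1.11 for Mx2 (24.3 kb) and -1.54 for Ifit2 (6.1 kb). The part of gene span in any of the values of replicate 5 was not tested.

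**Figure D5:**
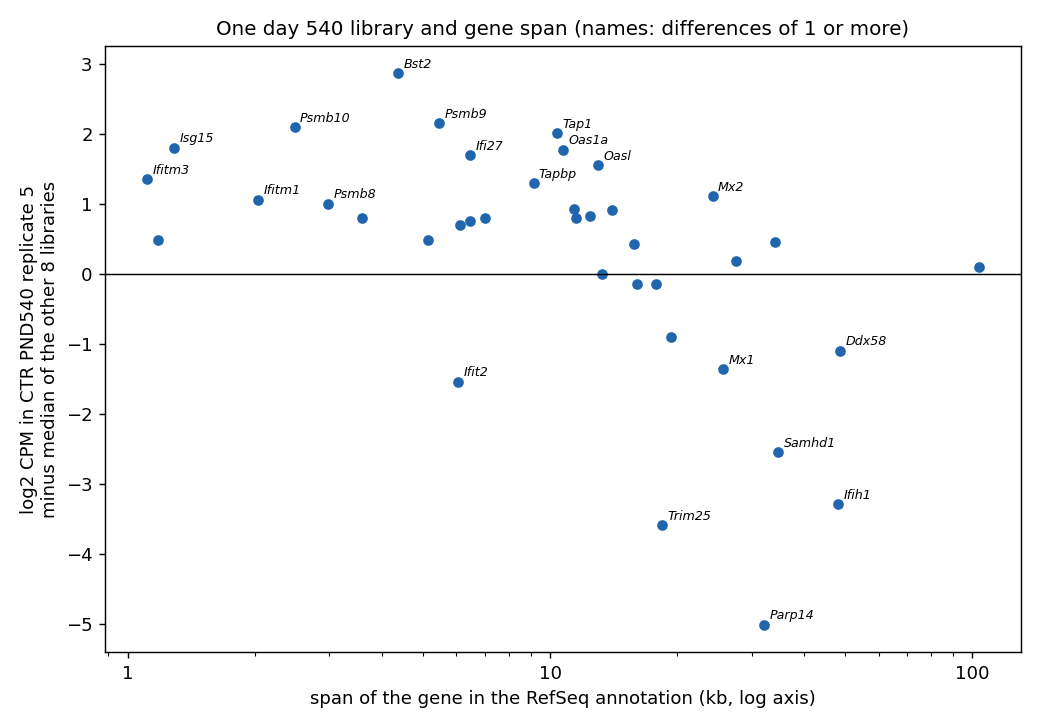
Log2 CPM in CTR replicate 5 at PND540 minus the median of the other 8 PND540 libraries (y axis) against the span of each gene in kilobases (x axis, log scale), 1 point per member, with names where the difference was 1 or more in size. Bst2, Psmb9, Psmb10 and Tap1 are above 2, and Parp14, Trim25, Ifih1 and Samhd1, with spans from 18.4 to 48 kb, are below -2. Against the trend, Ifit2 (6.1 kb) is at -1.54, Mx2 (24.3 kb) is at 1.11 and the unnamed Nlrc5 (103.6 kb) is at 0.10.

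Old glands also differed in the level of the class I processing genes. The mean log2 CPM of the 6 class I genes other than Tap2 was 5.63, 5.63, 5.30 and 6.27 in GLLP glands and 6.73, 5.74, 5.61, 6.50 and 7.29 in CTR glands at PND540. GLLP replicate 4 and CTR replicates 1, 4 and 5 were thus the 4 highest. They were also the highest for the mean over all 37 members other than Tap2, these 6 included, at 4.82, 4.96, 4.86 and 4.66. The transcription factors and regulators had them highest too, at 5.13, 5.47, 5.41 and 5.37. The RNA sensor genes did not, with CTR replicate 5 the lowest at 3.62. This order was therefore not particular to class I. The same 4 libraries had the highest sums of the 15 T cell markers, at 89.3 CPM in GLLP replicate 4 and 101, 99.5 and 134 CPM in CTR replicates 1, 4 and 5, against 59.1, 65 and 40.8 CPM in the other GLLP glands and 62.1 and 41.3 CPM in the other CTR glands. At PND21 the class I mean was 4.58, 4.80 and 5.33 in GLLP and 4.43, 4.64, 4.72 and 4.75 in CTR glands, and GLLP replicate 4, the highest, also had the highest T cell sum of that age, 24.6 CPM. The 5 pan-leukocyte markers at PND540 were highest in GLLP replicate 4 (91.1 CPM) and CTR replicates 1, 4 and 5 (95, 118 and 169 CPM). At PND21 their sum was 39 CPM in GLLP replicate 4, below GLLP replicate 3 with 41.8 CPM. The macrophage sums at PND540 were highest in CTR replicates 5 and 4 and GLLP replicate 4, at 2121, 1224 and 1047 CPM. CTR replicate 1, second for class I, had a macrophage sum of 703 CPM, below GLLP replicates 1 and 2 with 974 and 1042 CPM. Other leukocyte lists had other orders at PND540. NK and cytotoxic sums were highest in CTR replicate 1, GLLP replicate 4 and CTR replicate 5 (8.5, 6.98 and 6.22 CPM), but CTR replicate 4 had 4.24 CPM. B and plasma cell sums were highest in CTR replicate 1 and GLLP replicate 2 (84.2 and 30.3 CPM). Dendritic cell sums were lowest in CTR replicates 5 and 4 (5.9 and 7.63 CPM), and the neutrophil sum was highest in CTR replicate 2 (16.7 CPM). The part of T cells, macrophages and other leukocytes in the class I levels was not tested. CTR replicate 3, which was high among young glands for antiviral genes, was not high for class I, at 4.72.

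Other genes of the pathway, in lists chosen by name, were tested in the same fits, and their counts are to be read beside the share of all genes called, 19.1% higher and 17.1% lower in GLLP and 17.3% higher and 13.2% lower in CTR. Of 6 receptor genes tested (no interferon ligand passed the filter on low counts), 1 was called higher and 0 lower in GLLP and 2 and 0 in CTR, with Ifngr2, a chain of the interferon gamma receptor, called in both (log2 fold change 0.77 ± 0.19 in GLLP and 1.48 ± 0.47 in CTR). Signal transduction genes gave 3 higher and 1 lower of 14 in GLLP, where Irf3 was the lower one (-0.86 ± 0.19), and 4 higher and 0 lower in CTR, with the feedback inhibitor Socs3 at 2.75 ± 0.46. Of 17 nucleic acid sensing genes, 4 were called higher and 1 lower in GLLP, and 2 higher and 0 lower in CTR. Adar, the RNA-editing enzyme, was called in both at 1.04 ± 0.16 in GLLP and 1.01 ± 0.17 in CTR. Zbp1, a sensor of Z-form nucleic acid, had 2.97 ± 0.65 in GLLP and 2.90 ± 0.78 in CTR. The list of other interferon-stimulated genes had 12 higher and 4 lower of 52 in GLLP and 12 higher and 2 lower of 51 in CTR, and Pml, the scaffold of nuclear bodies, had the smallest p of the list in both (1.61 ± 0.21 in GLLP and 1.77 ± 0.16 in CTR).

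Of 13 constitutive proteasome subunits tested, 0 were called by edgeR in either diet group, with medians of -0.01 in GLLP and 0.28 in CTR. No difference between them and the immunoproteasome subunits was tested. Class I heavy chains and loading partners gave 7 higher and 4 lower of 24 in GLLP and 11 higher and 3 lower in CTR, with the heavy chain RT1-CE5 called higher in both (1.73 ± 0.20 in GLLP and 2.87 ± 0.41 in CTR). Many rat RT1 genes are similar copies, and how reads were divided among them is not known. Class II genes gave 4 higher and 0 lower of 10 in GLLP and 9 higher and 0 lower in CTR, RT1-DMa among both although it had no counts at PND21. Between diets 1 gene of these lists was called: Plscr1, a phospholipid scramblase, was higher in GLLP at PND21 (0.83 ± 0.14, edgeR adjusted p = 0.0299).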

How the data were processed

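Messenger RNA of 16 rat ventral prostates was sequenced on an Illumina instrument, per the labels. The authors deposited raw counts per gene in 1 table for PND21 (28688 entries, 26 of them names turned into dates) and 1 for PND540 (24218 entries). The submitters' processing notes name STAR, edgeR 3.34.0 and the build Rnor_6.0. What counting tool, annotation and strand setting applied was not given in the sources used here. No replicate pair agreed within sampling noise.

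Each comparison was fitted over all genes with edgeR 4.0.16 in R 4.3.3 (filterByExpr, TMM, robust quasi-likelihood test) and Benjamini-Hochberg adjustment at 0.05, on the libraries of its own groups; age comparisons used the 19710 shared names. The standard error is the absolute log2 fold change over the square root of F. CPM used TMM over all 16 libraries, and log2 CPM a prior count of 2. Tests were checked on simulated data. Alternatives were DESeq2 1.42.0, other scalings and filters, a replicate block, a joint fit and leaving out each library. All members were listed, and the genes given in full for the diet were the 5 with the smallest p. The members and lists were chosen with earlier results of these data known. Tables and figures used pandas 2.3.3 and matplotlib 3.10.9.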

Additional observations from a re-analysis of the deposited data

Results flagged for a closer look

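A single library lay far from the others of its group in 19 of 113 member and group pairs, by Dixon's criterion at a level where chance gives about 5%. Genes that share a library are not independent, so the 5% is only a guide. No share of flags over all genes is given beside the count, so it is not read as particular to the members. The 113 pairs are too few to hold all members in all 4 groups, and no GLLP pair at PND21 was flagged. The lack of flags in that group is therefore no sign that its libraries agreed. CTR replicate 3 at PND21 was the high one in 7: Irf7 at 16.1 CPM (others 6.35 to 7.12), Ddx58 at 7.03 CPM (2.96 to 3.62), Isg15 at 8.33 CPM (4.19 to 4.54), Ifit2 at 8.23 CPM (4.24 to 4.79), Oas1a at 15.5 CPM (2.67 to 3.06), Mx1 at 14.1 CPM (2.58 to 3.89) and Mx2 at 26 CPM (3.62 to 6.08). No class I processing gene was high in that library by the same criterion.

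CTR replicate 5 at PND540 was the high one for Bst2 at 195 CPM (others 17.6 to 36.4), Ifitm3 at 193 CPM (64 to 94.3), Psmb10 at 64.5 CPM (14.2 to 22.7), Tap2 at 14.8 CPM (5.86 to 8.18) and Tapbp at 493 CPM (179 to 243). It was the low one for Ddx58 at 8.05 CPM (16.5 to 18.3). Of all genes tested at PND540, 33.3% lay above and 37.1% below all 8 other libraries in this one.

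In GLLP at PND540, replicate 4 was high for Dhx58 at 12.4 CPM (6.09 to 6.86) and B2m at 854 CPM (430 to 479), replicate 3 was high for Ifi27 at 257 CPM (201 to 207), and replicate 2 was low for Ifit3 at 0.644 CPM (2.91 to 3.04). Usp18 was high in CTR replicate 1 at PND540, at 38.5 CPM (5.3 to 13.5), and Psmb9 was low in CTR replicate 1 at PND21, at 6.36 CPM (8.11 to 8.27).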

How the results depend on the processing

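Over all genes, the PND21 diet comparison moved most: 166 genes were called, against 650 with library size alone, 972 with DESeq2, 27 with the replicate block and 40 in the joint fit, and between 62 and 1509 with a library left out. Members called there were 0, against 1 with DESeq2 and 0 to 4 with a library left out. At PND540 DESeq2 called 2 genes. For the interaction it called 46, against 13, with 7 to 16 when a library was left out. With a library left out, members called ranged from 11 to 18 in GLLP and from 11 to 21 in CTR for age, and genes from 3434 to 5237 in GLLP and from 3041 to 6576 in CTR. The cause of these moves was not tested. Scaling by library size alone put the all-gene median at 0.14 (diet, PND21), -0.16 (age, GLLP) and -0.05 (age, CTR). Same-numbered samples did not deviate together (correlations -0.17 to 0.3). For age, the replicate block called 14 members in GLLP (Psmb9 gained, 0.89, edgeR adjusted p 0.0491, and Bst2 lost) and 20 in CTR. Over all genes the block called 2004 higher and 1810 lower in GLLP, and 3179 higher and 2839 lower in CTR. The block put the PND540 diet median of the members at -0.14. No member's age call reversed in any alternative; over the called genes and fits, in GLLP 95 values stayed past the threshold and 3 did not under other settings, and 87 did and 11 did not with a library left out. In CTR the counts were 118 and 8, and 130 and 32. Low counts limit Ifit3 and Oasl.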
